A study of Mus musculus with 15 samples.

Results

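The genes described here encode the subunits of the proteasome, its assembly factors and its regulators. They were taken as all genes on the array whose platform symbol starts with Psma, Psmb, Psmc, Psmd, Psme, Psmf or Psmg followed by a digit. The rule found 50 of the 19938 genes measured, and it used no expression value. Expression was measured on 15 Affymetrix mouse gene ST arrays, hybridised with RNA of cells from fetal livers of FVB/NJ embryos at stage E14.5. Cells were sorted with magnetic beads against TER119, a surface antigen of maturing red cell precursors. The groups were 3 Klf3 knockout (KO) TER119+ arrays, 4 wild-type (WT) TER119+ arrays, 4 KO TER119- arrays and 4 WT TER119- arrays. TER119+ cells were kept on the column, and TER119- cells are what ran through. Hepatocyte-lineage markers and most macrophage and endothelial markers were higher in TER119+ cells, as given below. Neutrophil and most progenitor markers were higher in TER119- cells. KLF3 is a zinc finger protein that binds CACCC-type DNA elements and represses transcription. The deleted part of Klf3 is not in the labels, nor is whether the arrays came from separate embryos or litters, or how pure the fractions were; thus p-values measure the spread between these arrays.

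The proteasome is the cell's main machine for degrading proteins tagged with ubiquitin. Its barrel, the 20S core particle, is built of stacked rings of alpha subunits, which gate the entrance, and of beta subunits, some of which cut peptide bonds. The 19S regulatory particle caps the barrel, recognises ubiquitin, unfolds the substrate with a ring of ATPases and feeds it in. In cells exposed to inflammatory signals, and in many blood cells, the cutting subunits can be exchanged for immunoproteasome subunits, and other caps or inhibitors can take the place of the 19S particle. Red cell precursors remove much of their protein and all of their organelles as they mature, and protein degradation by the ubiquitin system is part of that process.

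Of the 50 genes, 14 encode the standard 20S subunits, with 7 alpha and 7 beta genes, and 17 encode 19S subunits, with 6 ATPases and 11 other subunits. A further 3 encode immunoproteasome subunits, 2 encode tissue-restricted 20S subunits, 7 encode assembly chaperones and 5 encode activators or an inhibitor. The remaining 2, Psmc3ip and Psme3ip1, met the symbol rule and were counted apart: Psmc3ip encodes a cofactor of meiotic recombination and Psme3ip1 a protein that binds PSME3. There were 45 genes with 1 probe set, and for Psma3, Psma5, Psmb3, Psmc1 and Psmd2 the probe set with the highest mean was used. In WT arrays TER119+ minus TER119- was -2.19, -1.40, -0.73, -0.35 and 1.11 with these probe sets, in that order. The other probe sets kept the sign: -2.13 and -1.87 for Psma3, -1.60 for Psma5, -0.47 for Psmb3, -0.22 for Psmc1 and 1.04 for Psmd2. Psme2b was read only by a probe set that it shares with Psme2, so it has no value of its own. All values are log2 expression as deposited, and since the probes differ from gene to gene, levels are compared between arrays only and not between genes.

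Some properties of the arrays bear on every result. The probe set of Klf3 did not separate the genotypes: it lay between 10.34 and 10.55 on KO TER119+ arrays against 9.94 and 10.50 on WT TER119+ arrays, and between 8.02 and 8.74 on KO TER119- arrays against 7.94 and 8.80 on WT TER119- arrays, so the genotypes rest on the labels. Correlations between arrays of a group ranged from 0.971 to 0.995 over all genes. Among TER119- arrays, KO array 4 and WT arrays 2 and 4 stood apart from the other 5 on the first principal component, which held 54.2% of the variance. Sex-linked genes marked 2 of 3 KO and 2 of 4 WT TER119+ arrays as female, and 3 of 4 KO and 0 of 4 WT TER119- arrays. Array names follow a different pattern in each population, so a batch effect and a population effect, if both were present, cannot be told apart.

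The first question was how proteasome genes differ between TER119+ and TER119- cells. Among KO arrays, 34 of the 50 genes were lower in TER119+ cells, where 26.5% of all genes were lower, and 9 were higher, where 22.6% of all genes were higher (limma, adjusted p under 0.05). Among WT arrays, 34 genes were lower, against 29.1% of all genes, and 11 were higher, against 23.5%. The median difference over the 50 genes was -0.93 in KO and -0.80 in WT arrays on the log2 scale, beside -0.06 and -0.09 over all genes. The subunit groups did not move alike: all 14 standard 20S genes and all 3 immunoproteasome genes were lower in both genotypes, whereas 19S genes went both ways and 3 of the 5 regulators were higher. The KO and WT comparisons share no array, and their differences had the same sign for 48 of the 50 genes. Their Pearson correlation was 0.986 over the 50 genes and 0.972 over all genes, so this agreement is not particular to proteasome genes. All 43 genes called in KO arrays were called in WT arrays with the same sign, and Psmd3 and Psmd5 passed in WT arrays alone.

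Other cell types moved with the population, and their part in these differences was not tested. On WT arrays all 10 measured erythroid markers were higher in TER119+ cells, with a median difference of 4.20, and so were all 18 measured hepatocyte-lineage markers, with a median of 4.30. The mean over the hepatocyte-lineage markers lay between 11.14 and 11.52 on KO TER119+, 10.97 and 11.61 on WT TER119+, 5.73 and 7.19 on KO TER119- and 5.90 and 8.14 on WT TER119- arrays. Macrophage markers were higher for 11 of 13 and lower for 1 (median 2.18), their mean lying between 8.35 and 8.74 on TER119+ and between 6.21 and 6.55 on TER119- arrays, and endothelial markers were higher for 5 of 7 (median 1.85). Neutrophil and granulocyte precursor markers were lower for 12 of 12 (median -5.45), their mean lying between 5.15 and 5.90 on TER119+ and between 10.19 and 10.95 on TER119- arrays. Progenitor markers were lower for 6 of 8 (median -2.27) and lymphoid markers for 10 of 14 (median -0.92), and of 5 megakaryocyte markers 1 was higher. No marker reads 0 on this scale. In sorted bulk cells, fewer cells of a type and less RNA per cell cannot be told apart.

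**Figure D1:**
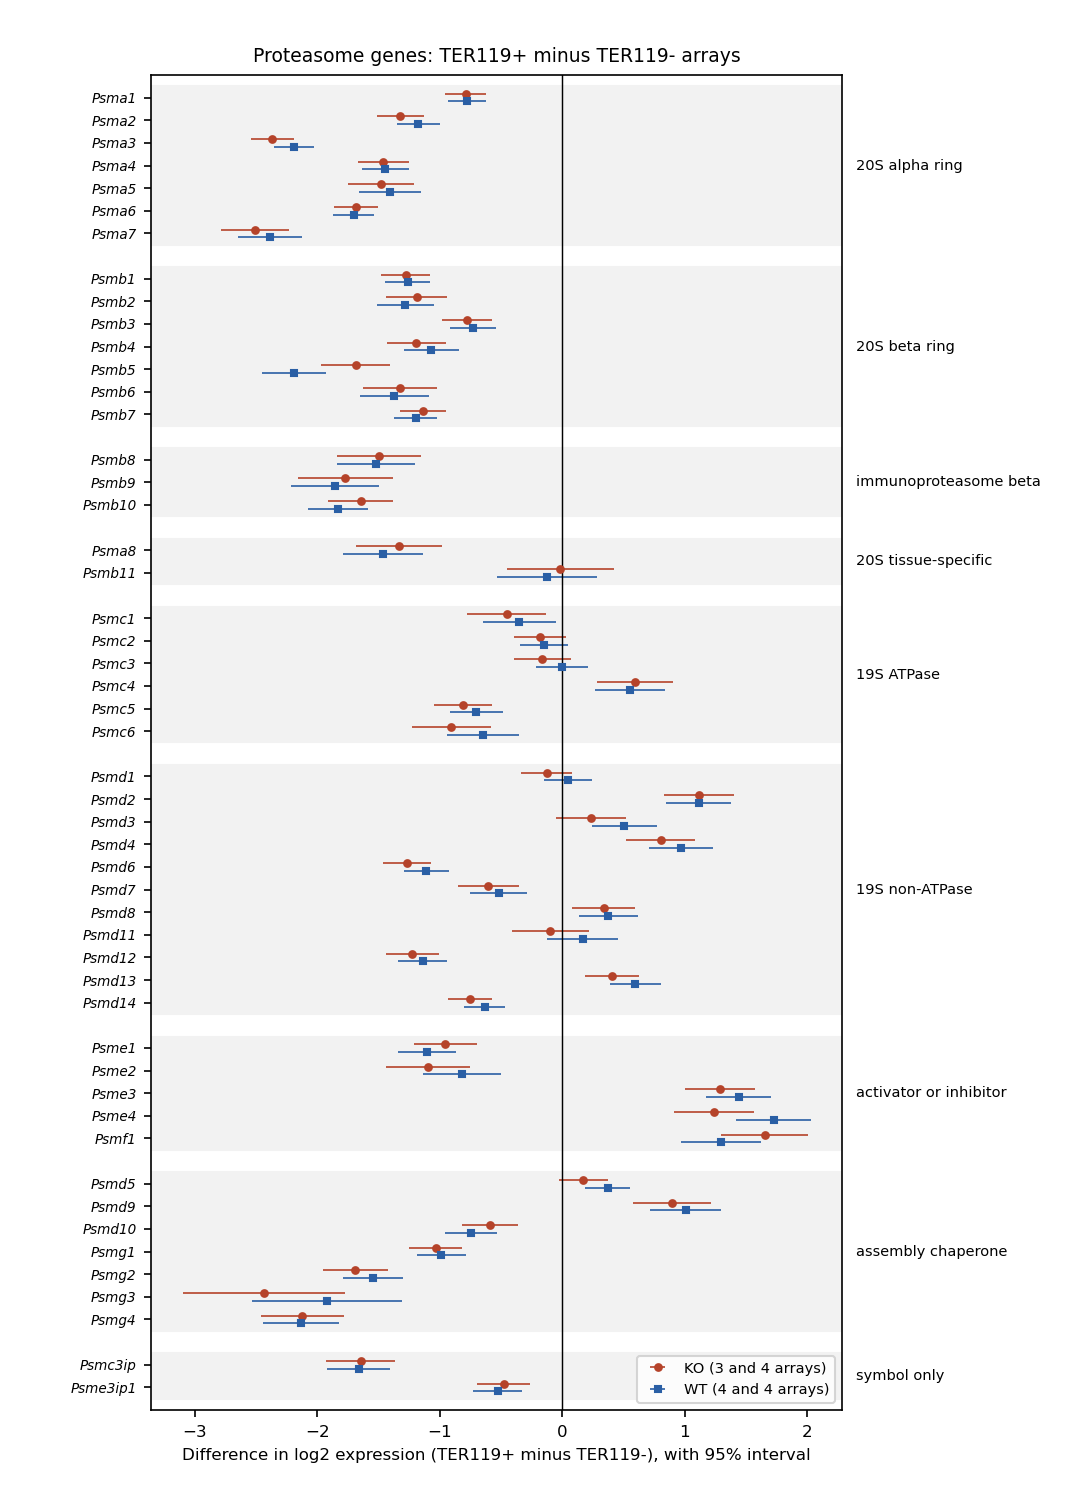
Difference in log2 expression, TER119+ minus TER119-, for each of the 50 genes by role, with 95% intervals from the fit of all arrays; circles are KO arrays (3 TER119+, 4 TER119-) and squares WT arrays (4 and 4). All 14 standard 20S genes lie left of 0 in both genotypes, between -2.51 and -0.73, while the 17 19S genes spread from -1.27 to 1.11 and Psme3, Psme4 and Psmf1 lie at 1.24 or more.

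Promoter sequence is shown for a few picked genes, to let the start regions of genes that differ in opposite directions be read side by side. They were not drawn by a rule. In cells short of proteasome activity, NFE2L1 is known to activate subunit genes through antioxidant response elements. Each line below runs 5′ to 3′ on the gene's strand from 110 bases before to 10 bases after the RefSeq start (GRCm38.p6), and capitals mark the core letters TGACNNNGC on either strand. Psmb5 and Psmb6 encode cutting subunits of the 20S core, Psma7 and Psma3 had the largest negative differences of the alpha ring in WT arrays, and Psmd9 and Psme4 were higher in TER119+ cells.
Psmb5 (chr14:54617986-54618105, minus strand): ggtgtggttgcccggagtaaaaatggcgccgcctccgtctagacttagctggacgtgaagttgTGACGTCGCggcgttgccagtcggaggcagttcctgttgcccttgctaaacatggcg
Psmb6 (chr11:70525247-70525366, plus strand): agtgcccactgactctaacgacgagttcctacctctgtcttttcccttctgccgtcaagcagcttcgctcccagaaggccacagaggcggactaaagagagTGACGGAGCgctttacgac
Psma7 (chr2:180042455-180042574, minus strand): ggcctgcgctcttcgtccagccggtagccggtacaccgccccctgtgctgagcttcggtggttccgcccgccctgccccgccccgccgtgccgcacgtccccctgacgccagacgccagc
Psma3 (chr12:70974513-70974632, plus strand): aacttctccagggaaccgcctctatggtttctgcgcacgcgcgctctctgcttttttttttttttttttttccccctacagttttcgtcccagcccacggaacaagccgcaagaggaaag
Psmd9 (chr5:123228080-123228199, plus strand): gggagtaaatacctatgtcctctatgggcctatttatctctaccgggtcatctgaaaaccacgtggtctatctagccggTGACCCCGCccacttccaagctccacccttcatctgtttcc
Psme4 (chr11:30771665-30771784, plus strand): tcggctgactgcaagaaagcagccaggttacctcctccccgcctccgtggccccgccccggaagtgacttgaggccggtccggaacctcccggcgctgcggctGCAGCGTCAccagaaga

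Among the printed genes, the core letters stood in the start region of Psmb5 and Psmb6, lower in TER119+ cells, and of Psmd9 and Psme4, higher there. They were in neither alpha ring window. Every gene found with the core in this stretch is printed, so the printed genes overstate how common it is. Psme3, Psmf1 and Psmd2, also higher in TER119+ cells, had no core in their windows. RefSeq windows from 250 bases before to 50 after the start were found for 42 of the 50 genes. The core TGACNNNGC was in 6 of the 42 (14.3%), Psmc6 and Psmd12 being the other 2, beside 14.0% of 27025 genes. The letters CCAAT, read by the factor NF-Y, were in 38.1% against 41.1% of all genes, and the CACCC-type letters CCNCNCCC, the kind KLF proteins read, in 52.4% against 51.9%, both strands counted; the motifs can overlap each other. By direction, the antioxidant core was in 4 of 28 windows of genes lower in both genotypes and in 2 of 9 windows of genes higher in both. These shares are descriptions of letters in windows and not of binding.

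All 14 genes of the standard 20S core were lower in TER119+ cells, with no overlap between the groups for any of them in either genotype. Over all genes the groups did not overlap for 56.1% in KO and 45.6% in WT arrays. Their median difference was -1.32 in KO arrays and -1.33 in WT arrays, and it lay between -1.42 and -1.32 in WT arrays under the 3 other scalings tried. The 7 alpha ring genes spanned differences from -2.51 (Psma7) to -0.79 (Psma1) in KO arrays, and the 7 beta ring genes from -1.69 (Psmb5) to -0.78 (Psmb3). In WT arrays the spans were -2.39 to -0.78 and -2.19 to -0.73, with the same genes at both ends. With the hepatocyte-lineage mean of each array as a covariate, 12 of the 14 passed as lower in KO arrays and 13 in WT arrays. That mean was 10.97 or more on TER119+ arrays and 8.14 or less on TER119- arrays. Such a fit therefore cannot tell hepatocyte content from population, and the part of hepatocytes was not tested.

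Psma7, an alpha ring subunit, read 9.19, 9.06 and 9.25 on KO TER119+ arrays, against 11.92, 11.58, 11.40 and 11.80 on KO TER119- arrays. On WT arrays it read 9.36, 9.21, 9.23 and 9.10 in TER119+ cells, against 11.34, 11.72, 11.61 and 11.77 in TER119- cells. Every TER119+ array was below every TER119- array in both genotypes. The difference was -2.51 (SE 0.13, adjusted p = 1.28e-10) in KO arrays and -2.39 (SE 0.12, adjusted p = 7.68e-11) in WT arrays, where it was 5.22-fold lower. Psma3, of the same ring, read 10.33, 10.19 and 10.33 on KO TER119+ arrays, against 12.68, 12.61, 12.57 and 12.73 on KO TER119- arrays, and 10.37, 10.36, 10.48 and 10.39 on WT TER119+ arrays, against 12.61, 12.61, 12.52 and 12.61 on WT TER119- arrays. Its arrays lay tightly within each group, with SDs of 0.08 or less, and the difference was -2.36 (SE 0.08, adjusted p = 1.49e-12) in KO and -2.19 (SE 0.08, adjusted p = 1.07e-12) in WT arrays.

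Psma2, another alpha subunit, read 9.81, 9.72 and 9.88 on KO TER119+ and 9.80, 9.80, 9.66 and 9.59 on WT TER119+ arrays, against 11.21, 11.08, 11.06 and 11.15 on KO TER119- and 10.81, 10.98, 10.87 and 10.89 on WT TER119- arrays. The populations did not overlap, and the difference was -1.17 (SE 0.08, adjusted p = 4.1e-09) in WT arrays. The other 4 alpha genes differed by -1.70 (Psma6), -1.45 (Psma4), -1.40 (Psma5) and -0.78 (Psma1) in WT arrays, each with an adjusted p of 1.28e-07 or less.

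Of the cutting subunits, Psmb5 carries the chymotrypsin-like activity, which drugs such as bortezomib block. It read 10.24, 9.98 and 9.82 on KO TER119+ arrays, against 11.84, 11.68, 11.70 and 11.58 on KO TER119- arrays, and 9.57, 9.35, 9.37 and 9.32 on WT TER119+ arrays, against 11.44, 11.36, 11.90 and 11.68 on WT TER119- arrays. The populations were apart, and within TER119+ the 3 KO arrays were also above all 4 WT arrays, which is taken up below. Psmb5 was 3.22-fold lower in TER119+ cells of KO arrays, a difference of -1.69 (SE 0.13, adjusted p = 1.8e-08), and 4.56-fold lower in WT arrays, a difference of -2.19 (SE 0.12, adjusted p = 2.68e-10).

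Psmb6, with the caspase-like activity, read 9.12, 9.54 and 9.29 on KO TER119+ arrays, against 10.92, 10.63, 10.52 and 10.49 on KO TER119- arrays, and 9.25, 9.27, 8.90 and 9.22 on WT TER119+ arrays, against 10.48, 10.41, 10.82 and 10.40 on WT TER119- arrays. TER119+ arrays were all lower, and the difference was -1.32 (SE 0.14, adjusted p = 7e-07) in KO and -1.37 (SE 0.13, adjusted p = 1.76e-07) in WT arrays. Psmb7, with the trypsin-like activity, read 11.32, 11.16 and 11.23 on KO TER119+ arrays, against 12.33, 12.38, 12.44 and 12.34 on KO TER119- arrays, and 11.35, 11.07, 11.26 and 11.15 on WT TER119+ arrays, against 12.44, 12.41, 12.41 and 12.36 on WT TER119- arrays. It too was lower on every TER119+ array, the difference being -1.14 in KO and -1.20 (SE 0.08, adjusted p = 2.68e-09) in WT arrays. The 4 beta genes with no cutting activity differed by -1.28 (Psmb2), -1.26 (Psmb1), -1.07 (Psmb4) and -0.73 (Psmb3) in WT arrays.

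**Figure D2:**
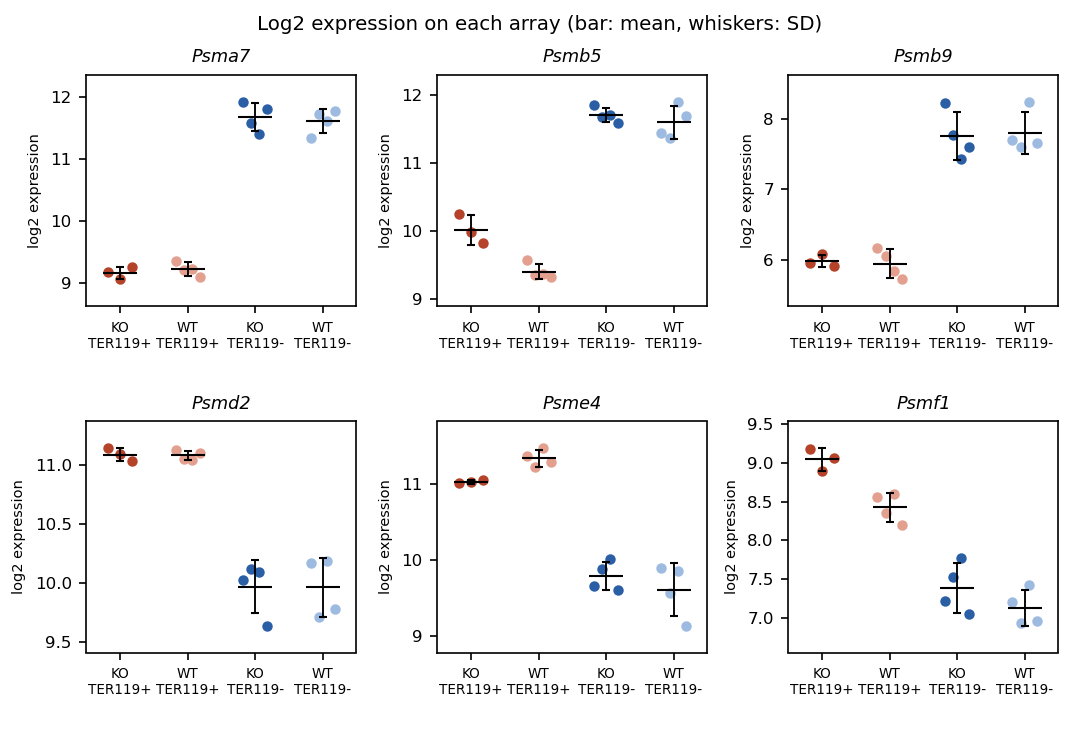
Log2 expression of 6 proteasome genes on each array, by group (KO TER119+ 3 arrays, the other groups 4 each); points are arrays, bars group means and whiskers 1 SD, and each panel has its own axis, which does not start at 0. Psma7, Psmb5 and Psmb9 lie lower on all TER119+ arrays, Psmd2, Psme4 and Psmf1 lie higher, and Psmb5 and Psmf1 lie higher on the 3 KO than on the 4 WT TER119+ arrays.

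The 3 immunoproteasome genes, whose products replace the standard cutting subunits and change which peptides are made for class I antigen presentation, were all lower in TER119+ cells. Psmb8, which replaces Psmb5, read 5.04, 4.81 and 4.69 on KO TER119+ arrays, against 6.64, 6.28, 6.08 and 6.35 on KO TER119- arrays, and 5.05, 5.12, 4.98 and 4.53 on WT TER119+ arrays, against 6.18, 6.36, 6.59 and 6.63 on WT TER119- arrays. Psmb9, which replaces Psmb6, read 5.96, 6.08 and 5.92 on KO TER119+ arrays, against 8.23, 7.77, 7.43 and 7.60 on KO TER119- arrays, and 6.17, 6.05, 5.84 and 5.72 on WT TER119+ arrays, against 7.70, 7.59, 8.24 and 7.66 on WT TER119- arrays. Psmb10, which replaces Psmb7, read 6.56, 6.21 and 6.54 on KO TER119+ arrays, against 8.17, 8.04, 8.03 and 8.09 on KO TER119- arrays, and 6.42, 6.19, 5.94 and 6.32 on WT TER119+ arrays, against 8.03, 7.84, 8.17 and 8.14 on WT TER119- arrays. For each of them every TER119+ array was below every TER119- array. The differences in KO arrays were -1.49 for Psmb8, -1.77 for Psmb9 and -1.65 for Psmb10. In WT arrays they were -1.52 (SE 0.15, adjusted p = 2.15e-07), -1.85 (SE 0.17, adjusted p = 8.39e-08) and -1.83 (SE 0.12, adjusted p = 1.09e-09) in the same order of genes. The neutrophil, progenitor and lymphoid markers were lower in the same cells, as given above, and their part in this result was not tested.

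The tissue-restricted subunits gave a mixed picture. Psma8, known for its expression in testis, read 5.56, 5.50 and 5.63 on KO TER119+ arrays, against 7.31, 6.49, 6.73 and 7.03 on KO TER119- arrays, and 5.47, 5.55, 5.58 and 5.58 on WT TER119+ arrays, against 6.81, 7.37, 6.85 and 7.00 on WT TER119- arrays. It was lower on all TER119+ arrays, with a difference of -1.46 (SE 0.15, adjusted p = 4.24e-07) in WT arrays. Psmb11, the subunit of cortical thymic epithelium, read 4.45, 4.47 and 4.49 on KO TER119+ arrays, against 4.41, 4.24, 4.33 and 4.97 on KO TER119- arrays, and 4.27, 4.59, 4.70 and 3.99 on WT TER119+ arrays, against 4.58, 4.31, 4.15 and 4.98 on WT TER119- arrays. The populations overlapped, the difference was -0.12 (SE 0.19, adjusted p = 0.618) in WT arrays with a 95% interval from -0.53 to 0.28, and Psmb11 was one of the 5 genes called in neither genotype.

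The 19S genes did not share a direction. In KO arrays 5 of the 17 were higher in TER119+ cells, 7 were lower and 5 did not pass, with a median difference of -0.16. In WT arrays 6 were higher, 7 lower and 4 did not pass, with a median of -0.00. With the mean of each gene's probe sets, 6 were higher and 6 lower in WT arrays. The WT median lay between -0.09 and 0.02 under the 3 other scalings, its sign changing when the arrays were quantile normalized again, and it was 0.30 with the hepatocyte-lineage covariate, where 5 were higher and 4 lower. Base and lid of the particle were both split: of 9 genes of the base, 3 were higher and 3 lower in WT arrays, and of 8 genes of the lid, 3 were higher and 4 lower.

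**Figure D3:**
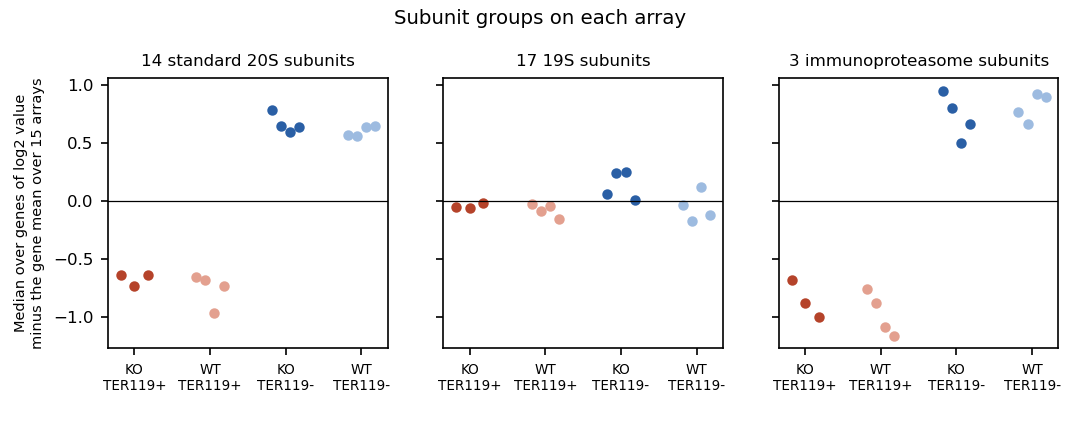
Median over the genes of a subunit group of each array's log2 value minus the gene's mean over all 15 arrays (vertical axis), by group, 1 point per array. For the 14 standard 20S genes the TER119+ arrays lie between -0.96 and -0.64 and the TER119- arrays between 0.56 and 0.78; for the 17 19S genes all arrays lie between -0.17 and 0.25; the 3 immunoproteasome genes follow the 20S pattern.

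In the base, the ATPase gene Psmc4 was higher in TER119+ cells (0.59 in KO, 0.55 (SE 0.14, adjusted p = 0.00244) in WT), whereas Psmc5 (-0.81 and -0.70), Psmc6 (-0.90 and -0.65) and Psmc1 (-0.45 and -0.35) were lower. Psmc1 was near the threshold in WT arrays, with an adjusted p of 0.0464 and overlapping groups. Psmc2 differed by -0.15 and Psmc3 by -0.00 in WT arrays, and neither passed in either genotype. The scaffold subunit Psmd2, to which ubiquitin-like shuttle proteins dock, read 11.14, 11.08 and 11.03 on KO TER119+ arrays, against 10.03, 10.12, 10.09 and 9.64 on KO TER119- arrays, and 11.12, 11.05, 11.04 and 11.10 on WT TER119+ arrays, against 10.17, 9.72, 10.19 and 9.78 on WT TER119- arrays. It was higher on every TER119+ array, by 1.11 (SE 0.13, adjusted p = 2.5e-06) in KO and 1.11 (SE 0.12, adjusted p = 9.78e-07) in WT arrays, and its 3 lowest values were those of KO TER119- array 4 and WT TER119- arrays 2 and 4. Psmd4, a ubiquitin receptor, read 9.12, 9.10 and 9.03 on KO TER119+ arrays, against 8.32, 8.31, 8.45 and 8.05 on KO TER119- arrays, and 8.98, 9.05, 8.91 and 8.91 on WT TER119+ arrays, against 8.12, 7.84, 8.33 and 7.71 on WT TER119- arrays, again higher on every TER119+ array, by 0.80 (SE 0.13, adjusted p = 7.45e-05) in KO and 0.97 (SE 0.12, adjusted p = 4.23e-06) in WT arrays. Psmd1, the other scaffold subunit, differed by 0.05 in WT arrays and did not pass.

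In the lid, Psmd13 (0.41 in KO and 0.60 in WT arrays) and Psmd8 (0.34 and 0.38) were higher in TER119+ cells. Psmd3 differed by 0.23 in KO arrays (adjusted p = 0.174) and was higher in WT arrays (0.51 (SE 0.12, adjusted p = 0.00257)), but the difference between the genotypes was itself -0.27 (SE 0.18, adjusted p = 0.9993). Psmd12 (-1.22 and -1.14), Psmd6 (-1.27 and -1.11), Psmd7 (-0.61 and -0.52) and Psmd14 (-0.76 and -0.63), the enzyme that removes ubiquitin chains from substrates, were lower. Psmd11 differed by -0.10 in KO and 0.17 in WT arrays and passed in neither. Within the lid, genes with differences of either sign thus encode parts of a single complex, and their adjusted p-values in WT arrays ranged from 1.06e-08 for Psmd6 to 0.0105 for Psmd8 among the 7 that passed.

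The regulators that bind the ends of the core split by type. Psme4, a large nuclear activator that opens the core without ATP, read 11.00, 11.02 and 11.05 on KO TER119+ arrays, against 9.66, 9.88, 10.01 and 9.60 on KO TER119- arrays, and 11.37, 11.21, 11.46 and 11.28 on WT TER119+ arrays, against 9.89, 9.56, 9.85 and 9.13 on WT TER119- arrays. Every TER119+ array was higher, and the differences were 1.24 (SE 0.16, adjusted p = 3.87e-06) in KO arrays and 1.72 (SE 0.14, adjusted p = 2.88e-08) in WT arrays, 3.3-fold. Psme3, the nuclear member of the 11S activator family, read 11.32, 11.37 and 11.33 on KO TER119+ arrays, against 10.02, 10.10, 10.34 and 9.75 on KO TER119- arrays, and 11.39, 11.30, 11.37 and 11.37 on WT TER119+ arrays, against 10.18, 9.81, 10.03 and 9.65 on WT TER119- arrays. It was higher on every TER119+ array, by 1.29 (SE 0.13, adjusted p = 4.8e-07) in KO and 1.44 (SE 0.12, adjusted p = 4.65e-08) in WT arrays. Psmf1, described as an inhibitor of the 20S core in the test tube, read 9.18, 8.89 and 9.06 on KO TER119+ arrays, against 7.23, 7.53, 7.77 and 7.05 on KO TER119- arrays, and 8.56, 8.36, 8.60 and 8.20 on WT TER119+ arrays, against 7.21, 6.93, 7.43 and 6.96 on WT TER119- arrays. It was higher as well, by 1.65 (SE 0.17, adjusted p = 3.25e-07) in KO and 1.29 (SE 0.15, adjusted p = 2.14e-06) in WT arrays.

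The interferon-inducible activator genes went the other way. Psme1 read 8.55, 8.85 and 8.70 on KO TER119+ arrays, against 9.81, 9.66, 9.70 and 9.44 on KO TER119- arrays, and 8.41, 8.69, 8.51 and 8.71 on WT TER119+ arrays, against 9.62, 9.58, 9.91 and 9.61 on WT TER119- arrays. Psme2, whose product pairs with that of Psme1, read 8.07, 8.16 and 7.95 on KO TER119+ arrays, against 9.53, 9.21, 8.98 and 8.92 on KO TER119- arrays, and 8.09, 8.23, 7.83 and 8.26 on WT TER119+ arrays, against 9.01, 8.58, 9.18 and 8.90 on WT TER119- arrays. Both were lower on every TER119+ array: Psme1 differed by -0.95 in KO and -1.10 (SE 0.11, adjusted p = 3.1e-07) in WT arrays, and Psme2 differed by -1.10 in KO and -0.82 (SE 0.15, adjusted p = 0.000198) in WT arrays. The probe set shared by Psme2 and Psme2b averaged 7.44 on KO TER119+, 7.35 on WT TER119+, 8.56 on KO TER119- and 8.40 on WT TER119- arrays.

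Chaperones of the 20S core were lower in TER119+ cells, and those of the 19S base were split. Psmg4 read 5.63, 5.25 and 5.49 on KO TER119+ arrays, against 7.96, 7.41, 7.43 and 7.52 on KO TER119- arrays, and 5.52, 5.11, 5.08 and 5.14 on WT TER119+ arrays, against 7.44, 7.11, 7.60 and 7.23 on WT TER119- arrays. Psmg3, which acts with Psmg4 in building the alpha ring, read 4.95, 5.20 and 5.32 on KO TER119+ arrays, against 7.90, 7.85, 7.60 and 7.02 on KO TER119- arrays, and 6.20, 5.04, 6.07 and 4.79 on WT TER119+ arrays, against 7.50, 7.12, 7.94 and 7.21 on WT TER119- arrays. Both were lower on every TER119+ array, with differences of -2.13 (SE 0.15, adjusted p = 2.84e-09) for Psmg4 and, for Psmg3, -1.92 (SE 0.29, adjusted p = 2.75e-05) in WT arrays. Psmg3 had the widest spread of any of the 50 genes in a group, an SD of 0.71 on WT TER119+ arrays, where arrays 1 and 3 were high. With the hepatocyte-lineage covariate Psmg3 differed by -0.68 in WT arrays and no longer passed (adjusted p = 0.572). Psmg2 (-1.69 in KO, -1.54 in WT) and its partner Psmg1 (-1.03 and -0.99) were also lower.

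Of the chaperones that guide assembly of the ATPase ring, Psmd9 read 7.79, 7.39 and 7.43 on KO TER119+ arrays, against 6.78, 6.67, 6.63 and 6.49 on KO TER119- arrays, and 7.46, 7.62, 7.52 and 7.45 on WT TER119+ arrays, against 6.73, 6.51, 6.74 and 6.06 on WT TER119- arrays. It was higher on every TER119+ array, by 0.90 (SE 0.15, adjusted p = 8.15e-05) in KO and 1.01 (SE 0.14, adjusted p = 1.04e-05) in WT arrays. Psmd10, known also as gankyrin, was lower (-0.59 and -0.75), and Psmd5 differed by 0.17 in KO arrays (adjusted p = 0.144) and was higher in WT arrays (0.37 (SE 0.09, adjusted p = 0.00172)). The genes counted apart, Psmc3ip (-1.65 and -1.66) and Psme3ip1 (-0.48 and -0.53), were lower in both genotypes.

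Genes outside the symbol rule that work with the proteasome were also followed. Of 19 measured proteasome-associated factors, 7 were higher and 7 lower in TER119+ cells of KO arrays, and 8 and 6 in WT arrays, with medians of 0.03 and 0.19. Over all genes 22.6% were higher and 26.5% lower in KO arrays, and 23.5% and 29.1% in WT arrays. Pithd1, which binds the regulatory particle, was higher (2.17 in WT, SE 0.29), as were Nploc4 (1.96), an adaptor of the VCP unfoldase, and Fbxo7 (1.87), an F-box protein that binds PSMF1. Pomp, the chaperone needed to complete the 20S core, was lower (-1.78 in KO and -1.73 in WT, SE of the WT difference 0.08), as was the deubiquitinase gene Uchl5 (-1.78 and -1.66). Pomp thus had the direction of all 14 standard 20S genes. Of the ubiquitin genes and their activating enzymes only Uba6 had a value, and it was lower (-1.79 in both genotypes).

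Among 13 measured genes for factors reported to act on transcription of proteasome genes, 6 were higher and 2 lower in TER119+ cells of KO arrays, and 7 and 3 in WT arrays. The shares over all genes are those given for the associated factors above. Mafk (2.74 in KO and 2.85 in WT), Foxo3 (2.42 and 2.47) and Bach1 (2.36 and 2.32) had the largest differences in WT arrays. Nfe2l2, which answers oxidative stress, was lower in WT arrays (-1.24, SE 0.11), as was Ngly1 (-1.21), whose enzyme processes NFE2L1. Nfe2l1 itself differed by 0.55 in WT arrays and did not pass (SE 0.25, adjusted p = 0.0832).

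The genes of class I antigen presentation, which the immunoproteasome serves, were mixed. Of 13 measured, 3 were higher and 2 lower in KO arrays, beside 22.6% and 26.5% of all genes. In WT arrays 4 were higher and 4 lower, beside 23.5% and 29.1% of all genes. Tapbp (1.65 in WT) and H2-Q10 (1.50) were higher and B2m (-1.31) was lower in TER119+ cells. In the RefSeq gene order Tap1 stands next to both Psmb9 and Psmb8, and Tap2 next to Psmb8. In WT arrays Tap1 differed by -0.31 and Tap2 by 0.35, both past the threshold, beside -1.85 for Psmb9 and -1.52 for Psmb8. In KO arrays neither passed, Tap1 differing by -0.22 (limma, adjusted p = 0.148) and Tap2 by 0.26 (adjusted p = 0.0601). Emc9, which lies between Psme1 and Psme2, was higher by 0.65 in WT arrays, against -1.10 and -0.82 for the flanking genes. Of these neighbours, Tap2 and Emc9 thus had the sign opposite to the proteasome genes beside them.

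The second question was whether proteasome genes differ between Klf3 KO and WT cells. In TER119+ cells 1 of the 50 genes passed, Psmb5, which was higher in KO arrays; 1.02% of all genes passed in this comparison. The 50 differences had a median of 0.01 and lay between -0.37 (Psmg3) and 0.62 (Psmf1), and 26 of them were positive. The median absolute difference of the 50 genes was 0.06, beside 0.09 over all genes.

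Psmb5 read 10.24, 9.98 and 9.82 on KO TER119+ arrays, against 9.57, 9.35, 9.37 and 9.32 on WT TER119+ arrays. Each KO array was above each WT array, with KO array 1 the highest. The difference was 0.61 on the log2 scale (SE 0.13, 95% interval 0.33 to 0.89, adjusted p = 0.0351), a 1.53-fold higher level, and it ranked 189 of 19938 genes by p. The call was near the threshold. It was lost, at adjusted p-values of 0.0545 and 0.237, when arrays were centred on their median or 75th percentile, at 0.0528 with a sex term and at 0.0777 with the replicate number as a block, and without KO TER119+ array 1 the difference was 0.50 (adjusted p = 0.303). It was also lost without KO TER119+ array 2, WT TER119+ arrays 2, 3 or 4, or KO TER119- arrays 2 or 3, at adjusted p-values between 0.0528 and 0.129, while the difference stayed at 0.58 or more.

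The genes beside Psmb5 did not pass: 4931414P19Rik differed by 0.07, Psmb11 by 0.08, Ajuba by 0.33 and Cdh24 by -0.10 in KO against WT TER119+ arrays. Nor did the other 13 standard 20S genes, whose differences ran from -0.12 (Psma3) to 0.16 (Psmb6). Psmb6 differed with a 95% interval from -0.15 to 0.46 and Psmb7 by 0.03 with an interval from -0.16 to 0.22, so that among the 3 cutting subunits only Psmb5 passed. Whether Psmb5 differed from them in its response was not tested.

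Psmf1 had the second smallest p of the 50 genes. It read 9.18, 8.89 and 9.06 on KO TER119+ arrays, against 8.56, 8.36, 8.60 and 8.20 on WT TER119+ arrays. The groups did not overlap, and the difference of 0.62 (SE 0.17, 95% interval 0.26 to 0.97) was as large as that of Psmb5 but did not pass (adjusted p = 0.144). Under 5 of the 13 other settings it did pass, at adjusted p-values between 0.0168 and 0.0425, among them a fit of the TER119+ arrays alone (0.0326). It passed in none of the fits that left out a single array, and over all alternatives its adjusted p reached 0.656 (limma). Psma3, Psmc5 and Psme4 were also apart between the groups, all with KO below WT; Psme4 differed by -0.31 (adjusted p = 0.9998). Groups were apart for 5 of the 50 genes, about the same share as the 10.1% of all genes.

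The immunoproteasome genes did not pass in KO against WT TER119+ arrays. Their 95% intervals ran from -0.42 to 0.27 for Psmb8, -0.35 to 0.43 for Psmb9 and -0.05 to 0.49 for Psmb10, and each interval includes 0. None of the 17 19S genes passed, with differences between -0.15 (Psmc5) and 0.12 (Psmd4). An unadjusted p under 0.05 was found for 0 of them and for 1062 of all 19938 genes. Outside the symbol rule, Tapbp was the only gene of the 4 related lists to pass, higher in KO TER119+ arrays by 0.49 (SE 0.11, adjusted p = 0.0494). In the same comparison 1 of the macrophage markers, Vsig4, was lower in KO arrays (-1.21, adjusted p = 0.000491). The 5 megakaryocyte markers had a median difference of -0.73 with 0 called, and the 10 erythroid markers one of -0.00 with 0 called; the part of other cells in the Psmb5 difference was not tested.

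In TER119- cells 0 of the 50 genes passed between KO and WT (limma, adjusted p under 0.05), where 0.0853% of all genes passed. An unadjusted p under 0.05 was found for 4 of the 50 and for 1508 of all 19938 genes, a similar share. Psma2 had the smallest p: on KO TER119- arrays it read 11.21, 11.08, 11.06 and 11.15, against 10.81, 10.98, 10.87 and 10.89 on WT TER119- arrays. The groups did not overlap, as for 2 of the 50 genes and 2.63% of all genes, and the difference was 0.24 (SE 0.08, adjusted p = 0.636). Psmd4 read 8.32, 8.31, 8.45 and 8.05 on KO TER119- arrays, against 8.12, 7.84, 8.33 and 7.71 on WT TER119- arrays. These overlapped, and the difference was 0.28 (SE 0.12, adjusted p = 0.653). Psmb5 differed by 0.11 (95% interval -0.16 to 0.37) and Psmf1 by 0.26 (-0.07 to 0.59).

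Although none passed, 39 of the 50 differences were positive in TER119- cells, beside 46.2% of all genes. Of the 17 19S genes, 16 were positive with a median of 0.12, which was -0.02 when arrays were centred on their 75th percentile, a scaling that moved the median of all genes by about as much, to -0.15. The 19S median was 0.17 with median centring, which moved the median of all genes to 0.04, 0.14 with a sex term, 0.13 with other choices of probe set and 0.08 with the hepatocyte-lineage covariate. It was 0.05 without the 3 arrays that stood apart and 0.03 after a second quantile normalization. Those 3 arrays, 1 KO and 2 WT, held the lowest values of Psmd2, and the 3 lowest of Psmd4 and Psmd11 as well. Marker lists moved in the same comparison with 0 called: hepatocyte-lineage markers had a median of -0.82, neutrophil markers -0.30 and erythroid markers 0.31, and the arrays also differed in sex, as given above. The part of these in the 19S shift was not tested.

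**Figure D4:**
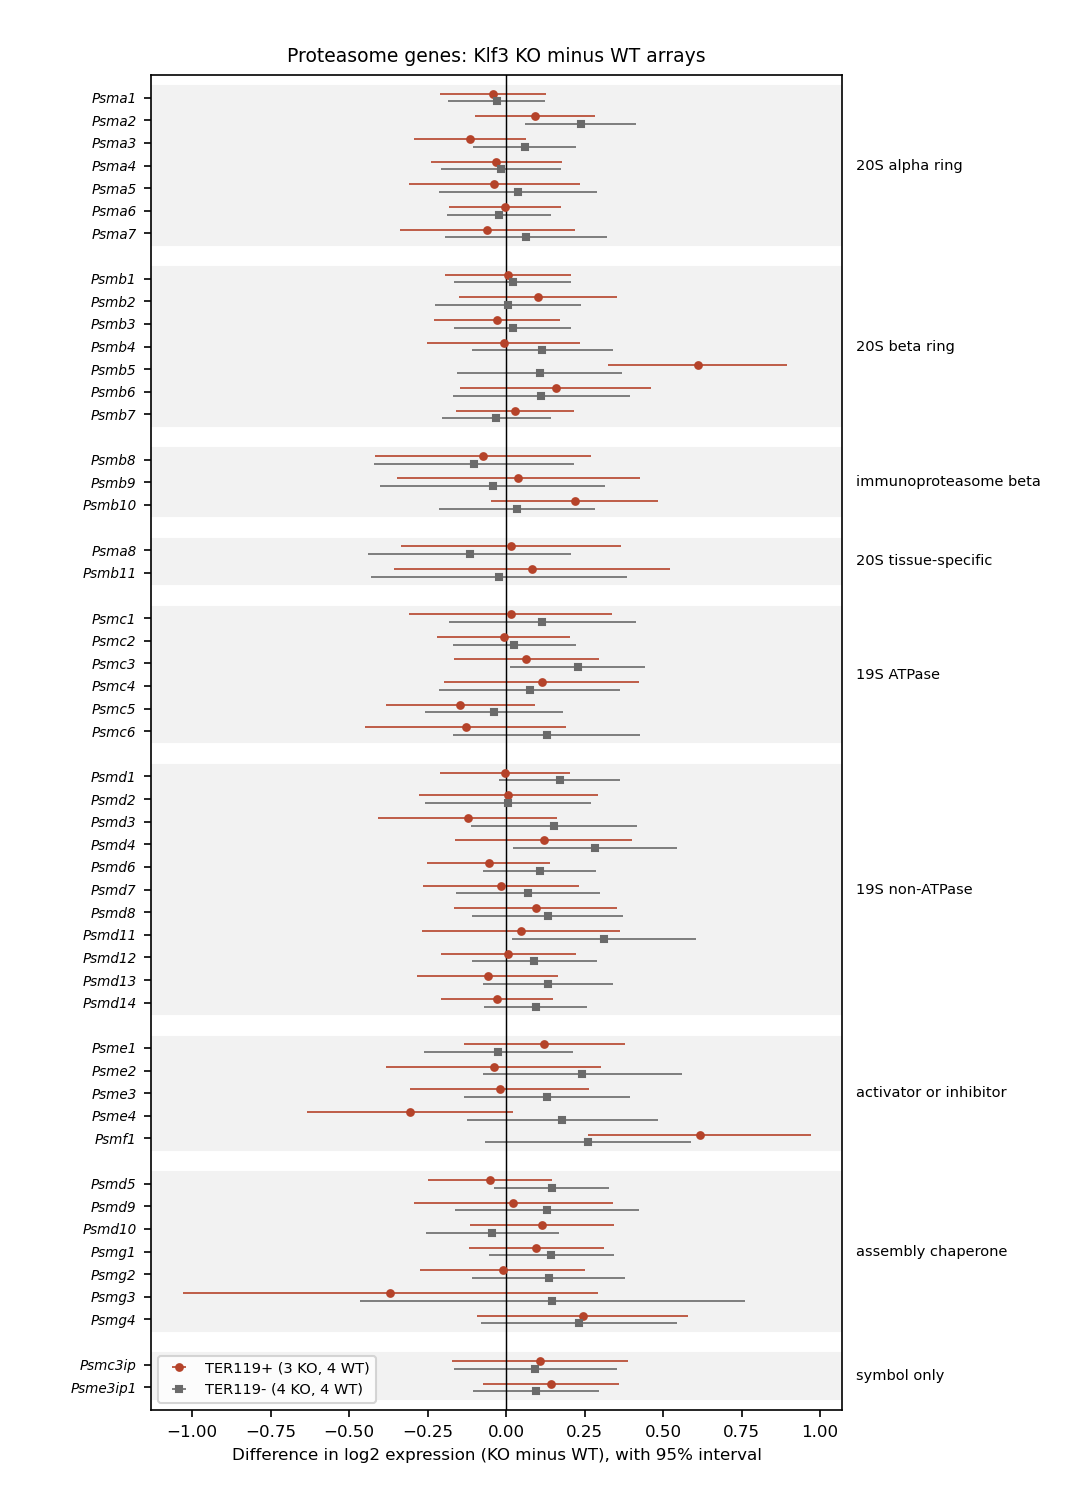
Difference in log2 expression, Klf3 KO minus WT, for each of the 50 genes by role, with 95% intervals from the fit of all arrays; circles are TER119+ arrays (3 KO, 4 WT) and squares TER119- arrays (4 and 4). Psmb5 at 0.61 and Psmf1 at 0.62 lie to the right in TER119+ cells, most intervals include 0, and 16 of the 17 19S squares lie right of 0.

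Whether the KO effect differed between the populations was tested as an interaction, the KO minus WT difference in TER119+ cells minus that in TER119- cells. It passed for 0.436% of all genes and for 0 of the 50 (limma). It had an unadjusted p under 0.05 for 852 of all 19938 genes and for 2 of the 50. For Psmb5 it was 0.50 (SE 0.18, 95% interval 0.12 to 0.89, adjusted p = 0.839), so the higher level of Psmb5 in KO TER119+ arrays is not shown to be particular to that population. For Psme4 it was -0.49 (SE 0.21, adjusted p = 0.9993), with KO arrays below WT arrays in TER119+ cells and above them on average in TER119- cells. The same quantity is the KO minus WT contrast of the population differences, so that no proteasome gene differed between TER119+ and TER119- cells to an extent that was shown to depend on the genotype.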

How the data were processed

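The authors deposited log2 expression per probe set, made with RMA and Partek per the submitters' processing notes; the sources used here give no versions. RMA gives arrays that are processed together a shared distribution, and it compresses differences between dim signals. Whether all 15 arrays were processed together is not in the labels. Of 35399 probe sets, 21789 had 1 symbol in the platform annotation, and the highest mean per symbol left 19938 genes. Groups were taken from the titles. All 15 arrays were fitted in limma 3.58.1 (R 4.3.3), each group having its mean, with no filter and no covariate, and 2-sided p-values were adjusted by Benjamini-Hochberg over 19938 genes at a threshold of 0.05. The fit was tested on simulated data. Errors of levels are SDs and those of differences SEs, and the number of arrays limits the precision. The 50 genes, their roles and the related and marker lists were chosen with earlier results of these data known. Values on every array are given for genes passing in a KO comparison or the interaction, the 2 of smallest p in each KO comparison, the 5 largest differences of each sign in WT arrays, and the cutting, immunoproteasome, tissue-restricted, Psme1, Psme2 and Psmf1 genes. Promoter sequences and gene order are RefSeq's (GRCm38.p6). Alternatives covered scaling, filter, probe set choice, arrays fitted, weights, prior, sex, replicate block, hepatocyte-lineage covariate and leaving out arrays. Protein sequences were not analysed here.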

Additional observations from a re-analysis of the deposited data

Results flagged for a closer look

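Of 63 groups of 4 arrays examined for 21 genes, 6 held an array far from the other 3, where chance alone flags about 1 group in 20. WT TER119- array 3 was far from its group for 3 genes. Psma3 was 12.52 there, against 12.61 on each of the other 3 arrays, Psmb9 was 8.24 against 7.59 to 7.70, and Psme1 was 9.91 against 9.58 to 9.62. WT TER119+ array 3 read 8.90 for Psmb6 against 9.22 to 9.27, WT TER119+ array 2 read 11.30 for Psme3 against 11.37 to 11.39, and WT TER119+ array 1 read 5.52 for Psmg4 against 5.08 to 5.14. None of these arrays overlapped the other population for the gene named.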

How the results depend on the processing

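The counts of genes that differed between populations kept within 1.5 times under every alternative: 7 to 11 higher and 23 to 36 lower in KO arrays, and 9 to 11 higher and 27 to 34 lower in WT arrays, with the lowest counts of lower genes under the hepatocyte-lineage covariate. Leaving out single arrays gave 8 to 9 higher and 33 to 34 lower in KO arrays and 11 higher and 33 to 34 lower in WT arrays. No gene passed in KO against WT TER119- cells or in the interaction under any alternative or without any array. The count in KO against WT TER119+ cells, 1 as reported, rested on Psmb5 and was 0 with median centring, 75th percentile centring, the replicate block and a sex term, 2 (Psmb5 and Psmf1) with a second quantile normalization, only the TER119+ arrays, array weights, the hepatocyte-lineage covariate and without the 3 arrays that stood apart, and 0 to 1 without single arrays; the cause was not tested. Whether same-numbered arrays share embryos is not in the labels. Correlations of same-numbered arrays' deviations ranged from -0.384 to 0.654 over pairs of groups. Those of unlike-numbered arrays ranged from -0.643 to 0.652, so these ranges do not settle whether the replicate number pairs arrays. With the replicate block Psmb5 differed by 0.60 (adjusted p = 0.0777), and 9 genes were higher and 34 lower between populations in KO and 11 and 34 in WT arrays. Of 1116 values of single genes, 1094 kept their side of the threshold and their sign, 17 no longer passed, 5 newly passed and 0 changed sign; of the 17, 11 were Psmb5 in KO against WT TER119+ cells and 6 came from the hepatocyte-lineage covariate. The probe set of lowest mean was added as an alternative after seeing the data. Groups of 3 or 4 arrays, dim genes compressed by RMA and fractions of unknown purity limit what small differences can show.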
